A study of Mus musculus with 24 samples.

Results

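Transcript levels of 10 heat shock and chaperone genes were followed across 24 RNA sequencing libraries of mouse skeletal muscle. The genes were listed by symbol, and all 10 were found among the 54532 genes of the count files and passed the filter on low counts in every fit. They were Cryab, Hspb1 and Hspb7 (small heat shock proteins), Hspa8, Hspa1a, Hspa1b and Hspa5 (HSP70 family), Hsp90aa1 (HSP90 family), and Hsph1 and Dnajb1 (partners of HSP70). Every library came from the left gastrocnemius, a calf muscle, of a wild-type C57/BL6 mouse whose age the labels do not give, and carries a label of 24 h. For each sex there were 4 control, 4 sedentary pain and 4 active pain animals. Controls were sedentary and had 2 injections of 20 µl saline at pH 7.2 ± 0.1 into the muscle, 5 days apart. Sedentary pain animals had 2 injections of pH 5.0 ± 0.1 at the same volume and spacing, and the muscle was stimulated electrically to contract for 6 min right before the second. Active pain animals had running wheels for 8 weeks and then went through the same pain procedure. Controls had neither acid nor contraction and no pain-free animals ran, so acid and contraction cannot be told apart, and running was seen only together with the pain procedure.

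Chaperones bind unfolded or partly folded proteins and keep them from aggregating. Small heat shock proteins hold such proteins without ATP, HSP70 and HSP90 proteins refold them in ATP-driven cycles, and J-domain proteins and HSP110 proteins drive the HSP70 cycle. In muscle, several small heat shock proteins bind the sarcomere and the cytoskeleton that surrounds it, and heat shock factor 1 switches on many chaperone genes after contraction, heat or injury. The HSP70 protein of the endoplasmic reticulum (ER), encoded by Hspa5, belongs to a separate program, the unfolded protein response.

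The starts of 5 of the genes are shown because they carry letters that the factors of these programs are known to bind. Sequences are RefSeq's, in build GRCm38.p6, from 250 bases upstream up to the annotated start, and the table held a window for 7 of the 10 genes (9 windows in all); Hspa8, Hsp90aa1 and Cryab were not matched. A heat shock element is built of GAA units in alternating orientation. Both strands were searched for the 2-unit forms GAANNTTC and TTCNNGAA, for the 3-unit form (GAA, TTC and GAA, each 2 bases apart), which contains both of them, and for the ER stress response element, CCAAT and CCACG with 9 bases between them. Matches are in capitals, and each sequence reads 5′ to 3′ along the gene's strand.
Hspa1a, chr17:34972157-34972406, minus strand: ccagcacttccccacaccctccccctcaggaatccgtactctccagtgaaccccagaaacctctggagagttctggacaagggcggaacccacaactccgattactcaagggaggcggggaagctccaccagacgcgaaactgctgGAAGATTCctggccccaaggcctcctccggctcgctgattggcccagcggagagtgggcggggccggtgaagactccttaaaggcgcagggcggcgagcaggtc
Hspa1b, chr17:34959239-34959488, minus strand: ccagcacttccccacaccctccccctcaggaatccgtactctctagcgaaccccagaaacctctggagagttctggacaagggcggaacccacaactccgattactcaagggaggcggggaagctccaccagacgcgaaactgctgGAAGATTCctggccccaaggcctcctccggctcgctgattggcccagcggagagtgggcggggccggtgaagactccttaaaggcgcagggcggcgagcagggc
Hspb1, chr5:135887669-135887918, plus strand: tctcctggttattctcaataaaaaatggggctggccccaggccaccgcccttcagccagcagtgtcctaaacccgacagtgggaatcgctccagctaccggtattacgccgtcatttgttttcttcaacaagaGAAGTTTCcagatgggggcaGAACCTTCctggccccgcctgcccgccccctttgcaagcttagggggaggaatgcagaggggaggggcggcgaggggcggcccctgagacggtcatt
Hspa5, chr2:34772020-34772048, plus strand: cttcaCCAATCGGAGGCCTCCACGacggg
Hsph1, chr5:149636352-149636379, minus strand: ggtagaatctTTCTCGAAggctcgagaa
For Hspa5 and Hsph1, only the bases around the match are given, because the GENCODE M21 annotation places an exon of the gene inside the window. The Hspa1a and Hspa1b windows were identical at 247 of 250 positions, with GAANNTTC from 104 to 97 bases before the start in both. Hspb1 held that form at 117 to 110 and again at 97 to 90 bases before the start. Among all 32851 windows of this length, 6.69% held GAANNTTC, 7.17% held TTCNNGAA, which Hsph1 had at 33 to 26 bases before 1 of its 2 annotated starts and 54 to 47 before the other, and 0.466% held the 3-unit form, which no window of these genes had. The ER stress response element was found in 0.113% of the windows, and Hspa5 had it at 65 to 47 bases before its start. The windows of Hspb7 and Dnajb1 held none of these forms. A match is a run of letters and was not tested for binding.

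Libraries held 17612139 to 34039699 counts. All 8 muscle fibre markers were detected in every group, with a summed level of 74780.0 to 164900.0 CPM (counts scaled to a fixed library size with TMM factors). In several libraries the whole profile lay away from their groups. On the first principal component, which held 57.4% of the variance over 15103 genes, male sedentary pain replicate 1 was at 93.3 against -51.0 to -26.1 for the other 3, and male active pain replicate 2 was at 50.5 against -42.1 to -6.16. Male controls lay between -73.5 and -49.7. Among females, sedentary pain replicate 1 was at 28.6 against 97.9 to 152.6, and active pain replicate 3 at 50.8 against -18.03 to 7.07, with controls between -51.6 and -8.98. Values without some of these libraries are given beside the results. Nothing in the labels names litters or cages, so p-values measure the spread between these animals only.

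Per base of exon, these genes covered a wide range of abundance in control muscle. In female controls Cryab, which encodes αB-crystallin, a small heat shock protein that binds desmin and titin, stood at 346 ± 68.0 CPM per kb (SD, n = 4). Next came Hspa8, the constitutive cytosolic HSP70, at 227 ± 10.1 CPM per kb, then Hspb1, whose protein (HSP25) caps actin filaments, at 85.7 ± 9.66 and Hspb7, a small heat shock protein of heart and skeletal muscle, at 70.5 ± 25.6. Hspa5 followed at 41.0 ± 2.87 CPM per kb, and Hsp90aa1, the inducible cytosolic HSP90, and Hsph1, an HSP110 that exchanges nucleotide on HSP70, at 11.99 ± 1.12 and 10.2 ± 0.851. Dnajb1, a J-domain protein that delivers clients to HSP70, stood at 2.08 ± 0.310 CPM per kb. The near-identical genes of inducible HSP70 came last, Hspa1a at 0.985 ± 0.277 and Hspa1b at 0.860 ± 0.153. Reads that also match other genes may be missing from some of these levels. Neighbours whose values overlapped between animals, and so cannot be ordered, were Hspb1 and Hspb7, Hspb7 and Hspa5, Hsp90aa1 and Hsph1, and Hspa1a and Hspa1b. In male controls Cryab, at 224 ± 31.7 CPM per kb, overlapped Hspa8, at 219 ± 9.89.

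Male and female controls were compared to see whether these levels differed between the sexes before any pain procedure. No gene of the 10 passed edgeR's quasi-likelihood F test at a Benjamini-Hochberg adjusted p under 0.05, while 2.83% of all genes tested did. Unadjusted p-values under 0.05 were also found for 0 of the 10, beside 14.9% of all genes, and DESeq2 called 0. Cryab and Hspa5 were lower in every male than in every female control (2 of 10, against 22.3% of all genes without overlap and 9.3% lower in males). The log2 differences, male minus female, were -0.63 ± 0.47 (SE) for Cryab and -0.24 ± 0.25 for Hspa5.

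In females, the comparison of sedentary pain with control muscle asked what the pain procedure went along with in inactive animals. Transcripts of 9 of the 10 genes rose, and the gene that did not pass the test was Hsph1. The gains ran from 3.28-fold in Cryab and 3.33-fold in Hspb1, as ratios of group means, to 1.51-fold in Hsp90aa1. This was a comparison in which much of the transcriptome was called: 33.5% of all 14511 genes tested passed, and 19.6% were higher. The median log2 fold change was 1.22 over the 10 genes and -0.02 over all genes tested. Offsets for base composition and length (GC and length correction) shifted the median of all genes to -0.14 and turned the split of higher against lower genes from 2847 and 2020 to 2270 and 2906, while the 10 genes kept their direction under it.

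Among small heat shock proteins, Cryab stood at 554, 477, 623 and 389.5 CPM in the female controls and at 1425, 2260.0, 1235 and 1777 CPM in sedentary pain. Every pain animal lay above every control, replicate 2 highest. The log2 fold change was 1.69 ± 0.22 (SE; edgeR, adjusted p = 0.00251). Hspb1 was at 99.5, 87.4, 91.1 and 75.5 CPM in controls and at 240.4, 565, 144 and 227 CPM in sedentary pain, again with no overlap and with replicate 2 far above the others. Its log2 fold change was 1.72 ± 0.35 (edgeR, adjusted p = 0.0055). Hspb7 went from 215, 259, 213 and 93.8 CPM to 763, 696, 403 and 383 CPM, also without overlap, by 1.51 ± 0.39 on the log2 scale (edgeR, adjusted p = 0.0153). In all, 6 of the 10 genes had pain values wholly above the controls, where 26.3% of all genes did not overlap and 15.3% were higher in pain.

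The 4 HSP70 genes of the set rose, by unequal amounts. Hspa5, encoding BiP, was at 159, 188, 175 and 171 CPM in controls and at 343, 475, 369 and 379.8 CPM in sedentary pain. The groups lay far apart in relation to their spread, with a log2 fold change of 1.16 ± 0.14 (edgeR, adjusted p = 0.00225). Hspa8 started high, at 987, 1022, 918 and 976.5 CPM, and reached 1563, 2001, 1335 and 1425 CPM, a log2 fold change of 0.68 ± 0.14 with no overlap (edgeR, adjusted p = 0.00639). Counts of inducible HSP70 were low in both groups. Hspa1a was at 3.99, 2.82, 2.89 and 1.99 CPM in controls and at 3.48, 9.87, 6.06 and 9.36 CPM in pain, and Hspa1b at 2.21, 2.27, 3.05 and 2.11 against 2.69, 5.96, 5.32 and 9.86 CPM. In both genes pain replicate 1 lay within the control range and the other 3 above it, and both log2 fold changes were 1.28, with SE 0.31 for Hspa1a and 0.32 for Hspa1b (edgeR, adjusted p = 0.0117 and 0.0133). Their summed level does not depend on how reads were divided between them, but would miss reads left uncounted because they match both. It went from 5.33 ± 0.949 to 13.2 ± 5.66 CPM (SD, n = 4).

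Hsp90aa1 was at 41.7, 49.2, 51.8 and 45.8 CPM in controls and at 65.2, 73.3, 80.7 and 66.0 CPM in sedentary pain. The groups did not overlap, and the log2 fold change was 0.58 ± 0.14 (edgeR, adjusted p = 0.0101). Dnajb1 was at 5.63, 5.97, 7.58 and 7.43 CPM in controls and at 7.41, 10.04, 12.9 and 16.4 CPM in pain, where replicate 1 overlapped the controls, with a log2 fold change of 0.79 ± 0.22 (edgeR, adjusted p = 0.0197). Hsph1 was at 77.1, 79.3, 65.3 and 74.7 CPM in controls and at 105, 90.3, 88.8 and 62.8 CPM in pain. Its pain values included both the highest and the lowest of these 8 animals, and the log2 fold change of 0.21 ± 0.15 did not pass (edgeR, adjusted p = 0.274).

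**Figure D1:**
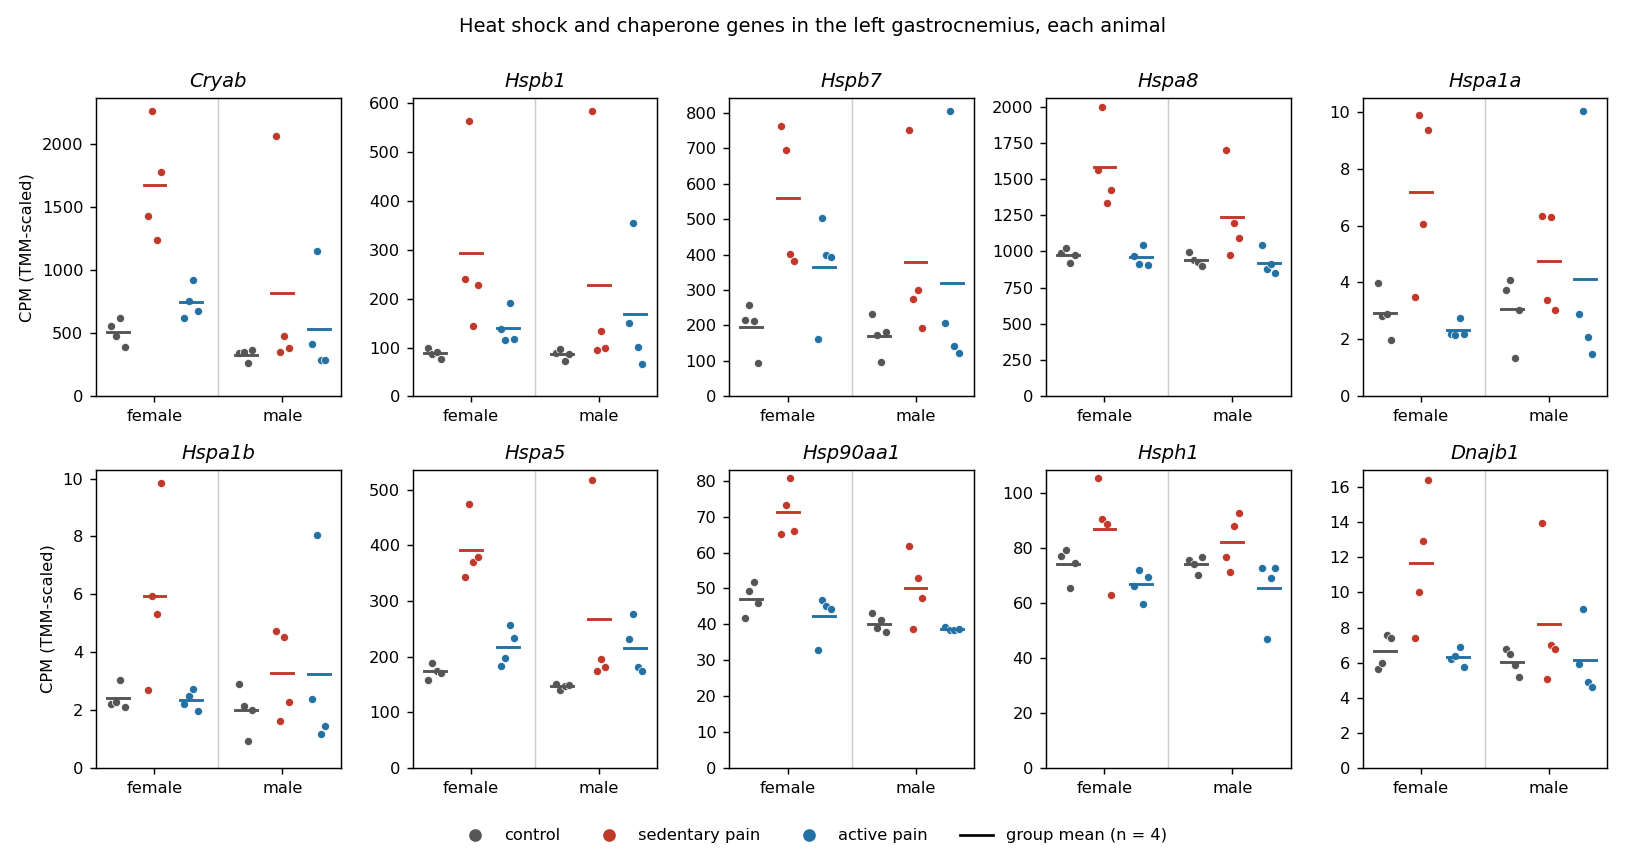
Level of each gene in every animal, in CPM with TMM factors on a linear axis from 0; points are animals, horizontal bars are means of 4, and groups from left to right are control, sedentary pain and active pain for females and then males. In females, Cryab, Hspb1, Hspb7, Hspa8, Hspa5 and Hsp90aa1 in sedentary pain lay wholly above the controls, while in males single animals lay far above the rest of their group in some genes, such as the Cryab value of 2063 CPM.

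The calls were not equally firm. Without pain replicate 1, 9 of the 10 genes were still called, and the count over all genes went from 4867 to 6674. With 1 surrogate variable as a term, 2 of the 9 calls stayed, Hspa5 at 1.03 (log2; edgeR, adjusted p = 0.0432) and Cryab at 1.51 (adjusted p = 0.0499), and Hsph1 was newly called at 0.67 (adjusted p = 0.0383). The 7 genes that lost their call were at 2.21 (Hspb7), 1.75 (Hspb1), 0.77 (Hspa8), 0.65 (Hspa1a), 0.53 (Hsp90aa1), 0.16 (Hspa1b) and 0.04 (Dnajb1). Dnajb1 also lost its call without pain replicate 4 or without control replicate 1 or 2, in the fit of only these 8 animals and under the GC and length correction, which took the call of Hspb7 too. Replicates 1 and 2 carry library numbers up to 20 and replicates 3 and 4 numbers from 25. Within the former, the ratio of group means was above 1 for 10 of 10 genes (1.25 to 4.31), and within the latter for 10 of 10 (1.08 to 3.16). Hspb1 differed most between them, at 4.31 and 2.23, and Cryab was at 3.57 and 2.97.

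Other cells' transcripts moved in the same libraries. All 10 macrophage and monocyte markers were higher in female sedentary pain, with summed levels of 472, 781, 3964 and 5601 CPM in replicates 1 to 4 against 99.9 to 217 CPM in controls. Neutrophil markers summed to 21.4, 255, 38.98 and 57.3 CPM in those replicates against 0.898 to 3.76 CPM, and mitochondrial transcripts took 2.75% to 8.22% of counts against 8.59% to 11.02%. Both lymphocyte markers tested were higher, the list summing to 3.03 to 84.8 CPM against 0.210 to 1.95 CPM. Of the adipocyte markers 4 of 5 were lower, with sums of 18.3 to 131 CPM against 45.6 to 1054 CPM. Slow fibre markers summed to 143 to 342 CPM against 344 to 1303 CPM with 0 of 7 called, and 2 of the 8 muscle fibre markers were lower, with sums of 74780.0 to 144700.0 CPM against 105100.0 to 146500.0 CPM. Endothelial markers summed to 153 to 169 CPM against 191 to 218 CPM (2 of 6 lower) and satellite cell markers to 40.5 to 64.7 CPM against 27.4 to 38.05 CPM (1 of 4 higher). Cryab, Hspb1, Hspa5 and Hspa8 were highest in replicate 2, which had the highest neutrophil sum and the third highest macrophage sum. Hspb7 was highest in replicate 1, which had the lowest sum of both. Hspa1b and Dnajb1 were highest in replicate 4, and Hspa1a was at 9.87 and 9.36 CPM in replicates 2 and 4. The part of these cells in the result was not tested, and in whole muscle fewer cells of a type and less RNA per cell cannot be told apart.

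Related chaperone genes gave a mixed picture outside the ER. Over 8 further lists, 88 of 91 genes were tested, of which 25 rose and 7 fell in female sedentary pain, with a median log2 fold change of 0.16. The 36.4% called in these lists lay near the 33.5% of all genes. ER chaperones and unfolded protein response genes accounted for 16 of the 25: 16 of 25 in that list rose, 0 fell and the median was 0.68. The largest gains were in Sdf2l1, an ER co-chaperone of BiP (2.59 ± 0.33, SE), Manf, a secreted ER stress protein (2.31 ± 0.38), and Creld2, an ER-resident stress protein (1.91 ± 0.34). Sdf2l1 went from 3.31 ± 0.547 to 20.2 ± 7.62 CPM and Manf from 15.6 ± 1.27 to 78.5 ± 42.9 CPM (SD, n = 4), with no overlap between groups. Among other small heat shock proteins 1 of 5 tested passed, Hspb8, a partner of the co-chaperone BAG3 in autophagy of damaged muscle filaments, at 1.15 ± 0.16. Hspb6, Hspb2, Hspb11 and Hspb3 had log2 fold changes of 0.45, 0.48, 0.44 and 0.23 and did not pass.

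In the HSP90 list, 2 of 14 tested genes rose and 4 fell. Hsp90ab1, the constitutive HSP90 (0.50 ± 0.14), and Ptges3, the co-chaperone p23 (0.36 ± 0.10), were higher, whereas Fkbp5, an HSP90 co-chaperone of steroid receptors (-1.06 ± 0.31), Smyd1, a methyltransferase that works with HSP90 on myosin (-0.62 ± 0.20), and Trap1, the mitochondrial HSP90 (-0.37 ± 0.12), were lower. Of 8 other HSP70 and HSP110 genes, Hspa14 rose (0.59 ± 0.14) and Hspa12a fell (-1.50 ± 0.33; both edgeR log2 fold changes ± SE). J-domain proteins (12 tested) had 2 higher, Dnajc7 (0.40) and Dnaja1 (0.36), and 1 lower, Dnajb5 (-0.77). Of 10 cofactors, Sqstm1, the autophagy receptor p62, rose (1.08) and Bag4 fell (-0.86). Of 10 chaperonin genes Cct3 (0.61) and Cct8 (0.52) rose, 9 were above 0 and 5 lay without overlap above control. Of all 14511 genes, 19.6% were called higher, 2020 were called lower and 15.3% lay without overlap above control. Transcripts of the heat shock factor list passed in 0 of 4 cases by edgeR; Hsf1, Hsf2, Hsf4 and Hsbp1 were at -0.02, -0.14, 0.40 and 0.05, which says nothing of the factors' activity. Adjusted p-values of the genes called in these lists were under the same threshold of 0.05 over all genes tested.

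**Figure D2:**
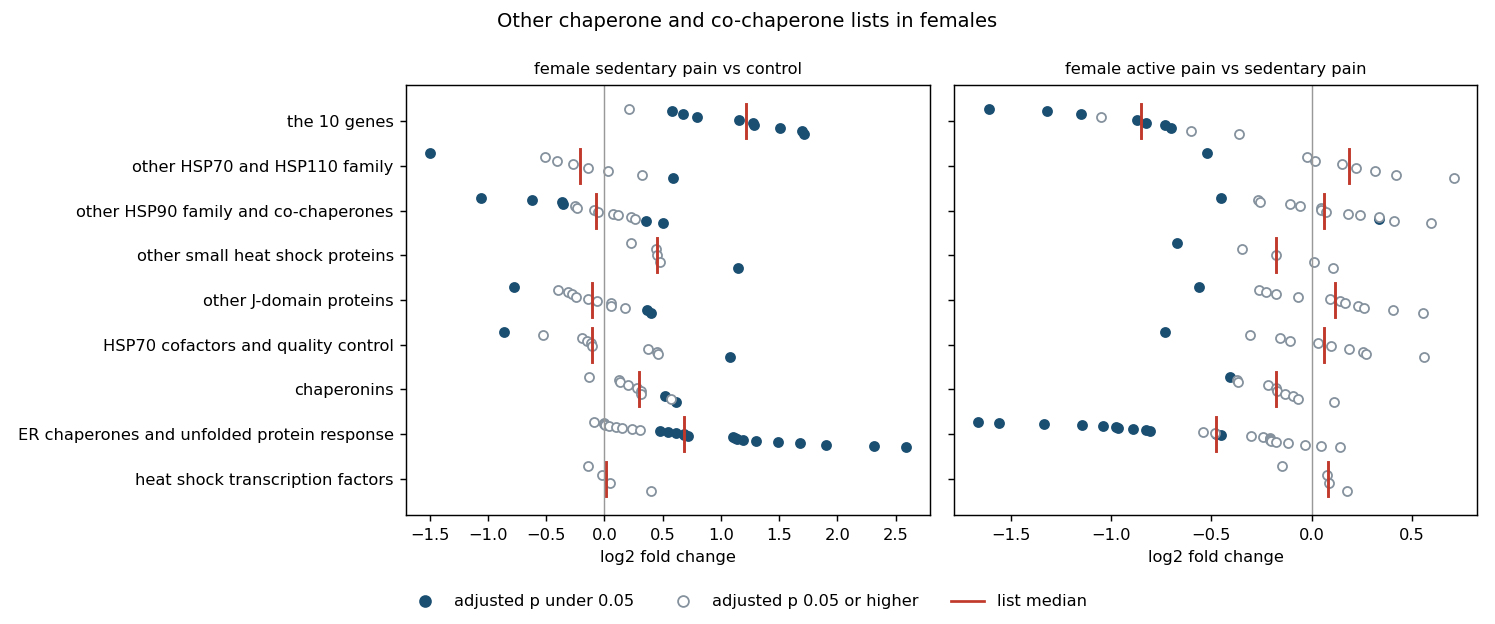
Log2 fold changes of the 10 genes and of the other chaperone lists in females, sedentary pain against control on the left and active against sedentary pain on the right; each point is a gene, filled where the edgeR adjusted p was under 0.05, and vertical bars are list medians. The ER list, with 16 of 25 genes filled and a median of 0.68 on the left, had the highest median of the 8 other lists, beside 1.22 for the 10 genes.

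Female active pain animals were compared with the same controls, to ask what the procedure went along with after wheel running. By edgeR 0 of the 10 genes passed, as did 0.0% of all 14511 genes. At an unadjusted p under 0.05 there were 3, Cryab (0.54 ± 0.22), Hspb7 (0.91 ± 0.38) and Hspa5 (0.33 ± 0.14, log2 ± SE), with adjusted p-values of 0.639, 0.677 and 0.687, beside 7.03% of all genes at that level; DESeq2 also called 0 of the 10. Cryab was at 623.5, 757, 922 and 673 CPM, above every control, although its lowest value lay next to the highest control of 623.4 CPM. Hspb1, at 137, 116, 191 and 117 CPM, was above every control as well. These 2 of 10 genes without overlap compare with 5.44% of all genes, and 3.6% higher; with RLE factors or total counts in place of TMM the count was 1. Hspb7 was at 163, 504.5, 399 and 392.5 CPM, where replicate 1 lay within the control range and the other 3 above it. Hspa8, at 969.7, 916, 1048 and 904.5 CPM, and Hsp90aa1, at 32.9, 46.7, 45.03 and 44.4 CPM, overlapped the controls. All 10 macrophage and monocyte markers and 6 of 6 neutrophil markers tested had log2 fold changes above 0 with none called, and their sums, 254 to 508 CPM against 99.9 to 217 CPM and 4.90 to 112 CPM against 0.898 to 3.76 CPM, did not overlap; their part in these values was not tested. The ratio of group means was above 1 for 6 of 10 genes within replicates 1 and 2 and for 6 within replicates 3 and 4.

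Female active pain was then set against female sedentary pain, with the pain procedure the same in both. Of the 10 genes 7 were lower in active animals and 3 did not pass, where 11.9% of all genes were called and 9.41% were lower. The median log2 difference was -0.85 over the 10 genes and 0.01 over all genes tested. The GC and length correction changed the counts of higher and lower genes from 364 and 1366 to 635 and 1251 and the median of all genes to 0.11. Both comparisons use the sedentary pain libraries, so a low level here and a rise above controls are not independent observations. Inducible HSP70 differed most: Hspa1a was at 2.21, 2.15, 2.74 and 2.19 CPM in active pain, all below the lowest sedentary pain value of 3.48 CPM, a log2 difference of -1.61 ± 0.31 (SE; edgeR, adjusted p = 0.0328). Hspa1b was at 2.21, 2.47, 2.74 and 1.98 CPM, overlapping sedentary replicate 1 at 2.69 CPM, with a difference of -1.32 ± 0.32 (edgeR, adjusted p = 0.0328). Their summed level in active pain was 4.67 ± 0.567 CPM (SD, n = 4).

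Differences of -1.15 ± 0.22 for Cryab, -0.87 ± 0.22 for Dnajb1, -0.83 ± 0.14 for Hspa5, -0.73 ± 0.14 for Hsp90aa1 and -0.70 ± 0.14 for Hspa8 also passed (edgeR, adjusted p = 0.0328 to 0.0331). In Hspa5 the active animals were at 184, 198, 256 and 234 CPM, below all sedentary pain animals, and in Dnajb1 at 6.22, 6.36, 6.89 and 5.75 CPM, likewise below. Hspb1 (-1.05 ± 0.34, adjusted p = 0.0623), Hspb7 (-0.60 ± 0.38, adjusted p = 0.287) and Hsph1 (-0.36 ± 0.15, adjusted p = 0.121) did not pass edgeR's test. All called genes except Hspa1b had no overlap, 6 of 10, where 11.8% of all genes did not overlap and 6.37% were lower. Within replicates 1 and 2 the ratio of group means was below 1 for all 10 genes (0.314 to 0.721), and within replicates 3 and 4 it was above 1 for 1 gene (0.310 to 1.01), Hspb7.

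These 7 calls depended on single libraries. Leaving out active pain replicate 1, 2 or 4, or sedentary pain replicate 3 or 4, each left 0 of the 10 genes called by edgeR, with 9 at an unadjusted p under 0.05 each time, beside 21.3% to 31.7% of all genes. Over these 5 fits the log2 difference was -1.30 to -1.10 for Cryab, -0.89 to -0.78 for Hspa5 and -1.71 to -1.48 for Hspa1a, and the adjusted p-values of the 7 genes were 0.0636 to 0.101. The fit of only these 8 animals and the fit with 1 surrogate variable also left 0, with 8 at an unadjusted p under 0.05, beside 3818 of all 14162 and 885 of all 14511 genes tested. With the surrogate variable Dnajb1 was at -0.24 and Hspa1b at -0.37, and the smallest difference of Cryab over all alternatives, -0.87, came with the GC and length correction and replicate block. With no filter on low counts 4 were called (0.667% of all genes), and DESeq2 called 8 (20.7% of all genes). Cryab and Hspa1b also lost their call in the fit of all 24 samples, and Hspa8 under the GC and length correction. Without sedentary pain replicate 1, 8 of the 10 and 4316 of all genes were called. With all libraries, 12 of 25 genes of the ER list were lower and 0 higher, where 9.41% of all genes were lower, with a median of -0.48, and 21.6% of the genes tested in the 8 other lists together were called. The 5 fits that ended the calls of the 10 genes called 0 genes in all, or 3 without sedentary pain replicate 3, so calls in these lists and in cell markers depended on the same libraries. The ER genes were led by Manf (-1.66 ± 0.37), Sdf2l1 (-1.56 ± 0.32) and Creld2 (-1.33 ± 0.34). In the other lists Sqstm1 (-0.73), Hspb8 (-0.67), Dnaja1 (-0.56), Hspa14 (-0.52), Hsp90ab1 (-0.45) and Cct3 (-0.41) were lower, and Sugt1, an HSP90 co-chaperone, was higher (0.33). The summed macrophage and monocyte markers were 254 to 508 CPM in active pain, below 781, 3964 and 5601 CPM in 3 of the 4 sedentary pain animals, and overlapped the fourth at 472 CPM, with 8 of 10 markers called lower. Lymphocyte sums did not overlap, at 1.08 to 1.95 CPM against 3.03 to 84.8 CPM (2 of 2 tested lower), and neutrophil sums did. The mitochondrial share was 6.67% to 11.44% against 2.75% to 8.22%. Muscle fibre markers had differences above 0 for 8 of 8 (median 0.41) and slow fibre markers for 7 of 7 (median 2.64), with 0 called. Slow fibre sums were 92.2 to 3390 CPM against 143 to 342 CPM. The part of these cells in the result was not tested.

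**Figure D3:**
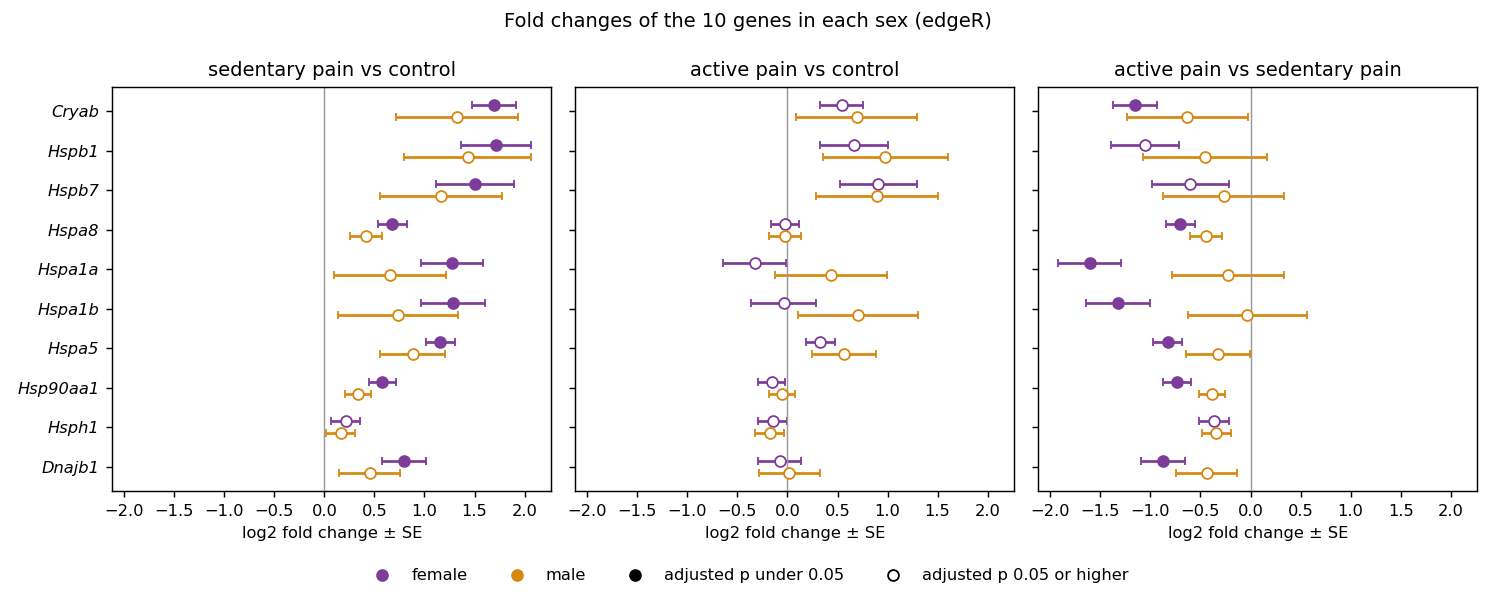
Log2 fold changes with standard errors from edgeR for the 10 genes in the 3 comparisons within each sex; filled points passed an adjusted p of 0.05. Females have 9 filled points in the left panel, 0 in the middle and 7 on the right. Males have 0 in all 3 panels, with the widest error bars for Cryab, Hspb1, Hspb7, Hspa1a and Hspa1b.

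Males went through the same 3 comparisons. In sedentary pain against control, all 10 log2 fold changes were above 0, from 0.16 in Hsph1 to 1.43 in Hspb1. The median was 0.70 beside -0.01 for all genes. Hspb1, Cryab and Dnajb1 each changed sign under 1 alternative, to -0.05, -0.08 and -0.12. No gene passed (edgeR, 0 of 10, as for 0.0% of all 14404 genes), 4 had an unadjusted p under 0.05, beside 8.84% of all genes, and DESeq2 called 0 of the 10 (270 of all genes). Those 4 were Hspa5 at 0.88 ± 0.32, Hspb1 at 1.43 ± 0.63, Hspa8 at 0.42 ± 0.16 and Hsp90aa1 at 0.34 ± 0.13 (log2 ± SE; adjusted p = 0.435 to 0.553).

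A single animal set much of the size of the values of Cryab, Hspb1 and Hspa5. Cryab was at 343, 352, 262 and 367 CPM in male controls and at 2063, 353.5, 474 and 384 CPM in sedentary pain, so that replicate 1 was at several times the level of the others. Hspb1 showed the same shape, with 88.5, 96.9, 71.7 and 85.8 CPM in controls and 585, 95.0, 135 and 99.3 CPM in pain. Hspa5 was at 151, 139.9, 148 and 148.5 CPM in controls and at 517, 174, 195 and 182 CPM in pain. Here the other 3 animals also lay above every control, so Hspa5 was the 1 gene of 10 without overlap, beside 8.07% of all genes and 3.95% higher. With total counts in place of TMM factors 4 of the 10 had no overlap. Within replicates 1 and 2 the ratio of group means was above 1 for 9 of 10 genes (0.986 to 3.67), and within replicates 3 and 4 for 10 of 10 (1.23 to 2.30).

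Without replicate 1, the mean of male sedentary pain went from 819 ± 831 to 404 ± 62.7 CPM for Cryab (1.22-fold of control), from 228.5 ± 238 to 109.7 ± 21.8 CPM for Hspb1 (1.28-fold) and from 267 ± 167 to 184 ± 10.5 CPM for Hspa5 (1.25-fold; SD, n = 4 and then 3). All 10 log2 fold changes were still above 0, from 0.07 to 0.59, with a median of 0.32 and none called. Replicate 1 also had the highest macrophage and monocyte sum of its group, 829 CPM against 139 to 482 CPM, the highest neutrophil sum, 300.3 CPM, and a mitochondrial share of 4.53% against 10.4% to 11.3%. Replicate 3 was the male in which all 10 genes exceeded every male control, and its macrophage sum of 219 CPM lay above the controls' 65.3 to 145 CPM. Hspa1a and Hspa1b were raised to about the same level in replicates 1 and 3, at 6.34 and 6.29 CPM for Hspa1a and 4.73 and 4.52 CPM for Hspa1b, and were at 3.02 to 3.38 and 1.64 to 2.29 CPM in the other pair. The male control ranges were 1.36 to 4.09 and 0.95 to 2.90 CPM.

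Male active pain against control gave 0 of 10 calls by edgeR, as for 0.0% of all genes, 0 at an unadjusted p under 0.05 (7.25% of all genes) and 0 by DESeq2. Hspa5, at 231.5, 277, 182 and 175 CPM, lay above every male control (1 of 10, beside 10.4% of all genes without overlap and 6.34% higher), with a log2 difference of 0.56 ± 0.32. Replicate 2 stood out in both directions. It held 1152 CPM of Cryab against 286 to 412 CPM in the other 3, 806 CPM of Hspb7 against 123 to 208 CPM, and 10.04 CPM of Hspa1a against 1.504 to 2.89 CPM, whereas its Hsph1 value of 46.9 CPM was the lowest of all 24 animals. Its macrophage sum of 512 CPM was the highest of the group (226 to 390.0 CPM in the others), and its mitochondrial share was 5.97%. Without it, Cryab averaged 329.6 ± 71.6 CPM (SD, n = 3), 0.995-fold of control, and Hspa5 196 ± 30.9 CPM, 1.33-fold. The ratio to control went from 1.86 to 0.917 for Hspb7, from 1.35 to 0.707 for Hspa1a and from 1.63 to 0.833 for Hspa1b. Ratios of group means were above 1 for 7 genes within replicates 1 and 2, which include it, and for 2 within replicates 3 and 4.

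In male active against sedentary pain, all 10 log2 differences were below 0, from -0.63 to -0.03 with a median of -0.36 beside -0.04 for all genes. None passed edgeR (0 of 10, as for 0.0% of all genes), 3 had an unadjusted p under 0.05 (Hsp90aa1 at -0.39 ± 0.13, Hspa8 at -0.44 ± 0.16 and Hsph1 at -0.34 ± 0.15), beside 0.84% of all genes, and DESeq2 called 0. Without sedentary pain replicate 1, 5 of the 10 differences were below 0 and 5 above, with Hspb1 at 0.60 ± 0.44, Cryab at 0.39 ± 0.42 and Hspa5 at 0.22 ± 0.14. Without that library and active pain replicate 2, 9 were below 0, with Cryab at -0.29 ± 0.17, Hspa8 at -0.21 ± 0.10, Hspb1 at -0.04 ± 0.26 and Hspa5 at 0.09 ± 0.11. Without active pain replicate 2 alone, all 10 were below 0 with a median of -0.83, among them Cryab at -1.32 ± 0.57, Hspb7 at -1.28 ± 0.45, Hspa1a at -1.15 ± 0.42 and Hspb1 at -1.11 ± 0.61. None of the 10 was called by edgeR in any of these 3 fits. No gene lacked overlap, beside 0.646% of all genes. Slow fibre markers had differences above 0 for 0 of 7, with sums of 42.3 to 223 CPM in active against 199 to 276 CPM in sedentary pain. Macrophage and monocyte markers had 0 of 10 above 0, and fibroblast and adipocyte markers 5 of 5 each, with 0 called. Their part in these values was not tested. Within replicates 1 and 2, which include both male libraries that stood apart, 2 genes had a ratio of group means above 1, and within replicates 3 and 4 there were 0. Hspa8 was at 1043, 879.7, 914 and 853 CPM in active pain and at 1702, 975, 1196 and 1092 CPM in sedentary pain. Hsp90aa1 was at 38.4 to 39.2 CPM in the 4 active males and at 61.8, 38.6, 52.9 and 47.5 CPM in sedentary pain, where replicate 2 alone lay among the active values. The ER list had 0 of 25 calls in males by edgeR; in sedentary pain 12 of 25 genes lay without overlap above control (3.95% of all genes did) with a median of 0.52, and in active pain 9 of 25 (6.34% of all genes) with a median of 0.46.

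**Figure D4:**
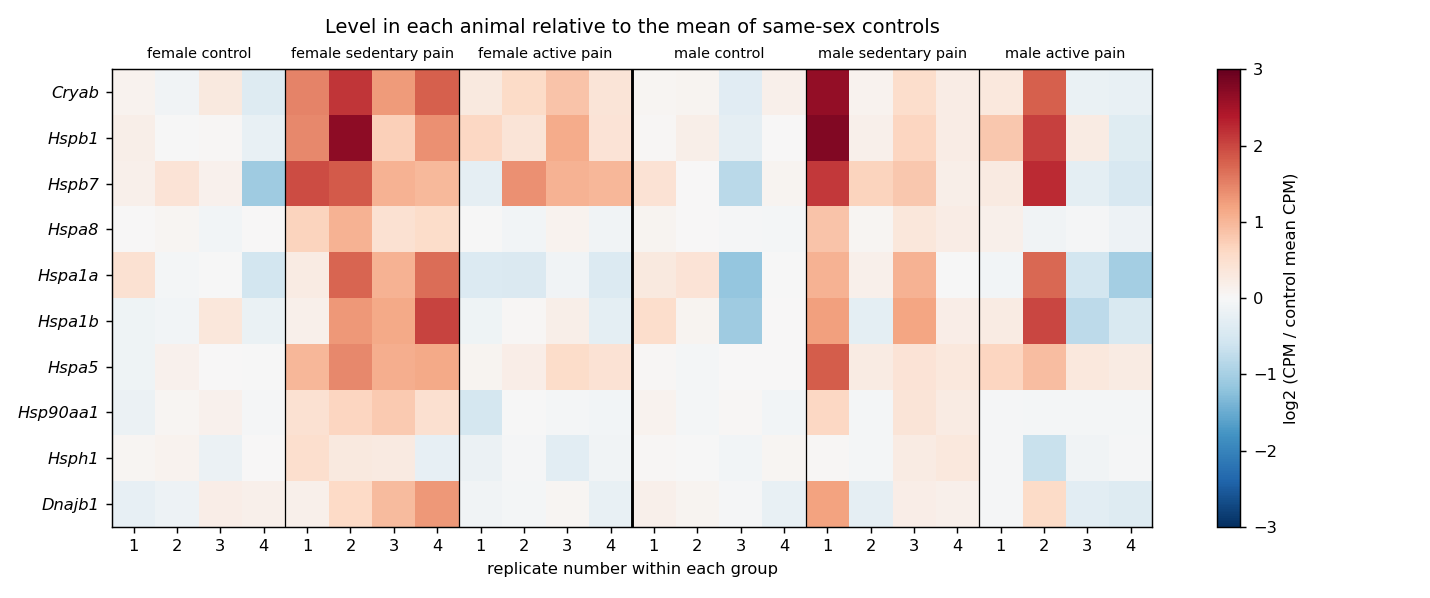
Level of each gene in each animal as log2 of its CPM over the mean of the same-sex controls, red above and blue below; columns are replicates 1 to 4 of each group. All 4 female sedentary pain columns are red for most genes, while the strongest red in males is in sedentary pain replicate 1 and active pain replicate 2.

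The genes were also counted per animal. In female sedentary pain 7, 10, 10 and 9 of the 10 genes exceeded every female control in replicates 1 to 4, where 25.9% to 40.4% of all genes did. Below every control lay 0, 0, 0 and 1, beside 23.1% to 40.5% of all genes. In female active pain 2, 4, 5 and 4 of the 10 lay above, beside 17.9% to 30.6% of all genes. There 1, 1, 1 and 2 lay below, beside 15.5% to 28.3% of all genes, so these counts were nearer to the share of all genes. Male sedentary pain animals had 9, 2, 10 and 7 genes above every male control, beside 41.7%, 18.5%, 20.1% and 18.02% of all genes. They had 0, 1, 0 and 0 below, beside 20.6% to 44.2% of all genes. Male active pain animals had 4, 7, 2 and 1 above, beside 34.5%, 40.6%, 23.6% and 24.2% of all genes. They had 0, 2, 2 and 3 below, beside 25.2% to 39.99% of all genes. The gene most often above was Hspa5, which exceeded every same-sex control in 15 of the 16 pain animals.

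Whether the changes differed between the sexes was tested as an interaction over all 24 libraries. By edgeR 0 of the 10 genes passed in any of the 3 interactions, as for 0.0% of all 15103 genes in each. Unadjusted p-values under 0.05 were found for 0, 0 and 2 genes, in sedentary pain against control, active pain against control and active against sedentary pain, beside 9.57%, 2.03% and 14.7% of all genes, and DESeq2 called 0 of the 10 in each. The 2 were Hspa1a (-1.42 ± 0.67, female change minus male change, adjusted p = 0.331) and Hsp90aa1 (-0.38 ± 0.18, adjusted p = 0.334). Calls in females and their absence in males are therefore not a tested difference between the sexes. This answer depended on which male libraries were kept. In sedentary pain against control, 0 of the 10 genes passed in all 24 fits that left out a single sample. The fit without both male libraries that stood apart was added after seeing the data. Those libraries held the highest male values of Cryab and Hspa5, so leaving them out lowers the male pain levels. It is no independent test of a sex difference. Without both male libraries that stood apart, Hspa5 (0.80 ± 0.19, adjusted p = 0.0396) and Cryab (1.38 ± 0.30, adjusted p = 0.0345) passed edgeR's interaction test for sedentary pain against control, as did 3.85% of all genes. Leaving out only male sedentary pain replicate 1, they had edgeR adjusted p-values of 0.0674 and 0.0944 there. That fit called both in active against sedentary pain, with 14.1% of all genes (Hspa5 -1.08 ± 0.20, adjusted p = 0.0228, and Cryab -1.57 ± 0.49, adjusted p = 0.0385). Without both male libraries, neither passed edgeR's test in active against sedentary pain (Hspa5 -0.89 ± 0.19, adjusted p = 0.0659, and Cryab -0.83 ± 0.31, adjusted p = 0.109).

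The genes varied together across the libraries to different degrees. Over the 45 pairs and 24 libraries, Spearman's rho of log2 CPM ran from -0.01 for Hspb1 with Hsph1 to 0.874 for Hspa5 with Cryab, with a median of 0.603. Hsph1 was the least tied to the rest, with a median of 0.110. The points share groups and libraries, so these values describe the set and carry no test. Of 15102 other genes, the closest to Hspa5 was Hyou1, an ER chaperone of the HSP110 kind (rho 0.953), followed by Muc1 (0.950) and Oas1a (0.946). Cryab was closest to Arl6ip5 (0.966), Rpl13a (0.956) and Cdc42 (0.953), Hspb1 to Mustn1 (0.957), Tubb6 (0.953) and Ckap4 (0.939), and Hspb7 to Ampd3 (0.881), Lmcd1 (0.879) and Ttc9 (0.877). Hspa1b and Dnajb1 were each other's closest gene (0.869), next to Mx2 (0.826) and Ifit1 (0.812) for Hspa1b and Dock5 (0.855) and Sh2b2 (0.850) for Dnajb1. Hspa1a was closest to Midn (0.828), Xirp1 (0.797) and Gm8355 (0.786), and Hsp90aa1 to Dnaja1, a J-domain protein gene (0.867), Rbm6 (0.820) and Ikbkb (0.803). Hspa8 and Hsph1 both had the pseudogene Gm15459 first (0.852 and 0.730), then Gm8337 (0.816) and Hsp90ab1 (0.806) for Hspa8 and Gnl2 (0.704) and Gm14048 (0.698) for Hsph1.

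Some counts can have been divided among similar genes, or left out where a read matches several. How such reads were treated is not given, so levels of genes with shared stretches may be too low. Of the stretches of 100 bases, the length of a read, in Hspa1a transcripts, 56.5% also occurred in other genes' transcripts, 47.1% in Hspa1b, and 49.9% of those of Hspa1b occurred in Hspa1a. For Hspb1 the share was 44.0% with the pseudogene Hsp25-ps1, whose own mean level was 0.792 CPM in female controls and 2.50 CPM in female sedentary pain. Hsp90aa1 shared 31.6% of its stretches with the pseudogene Gm12346, and Hspa8 26.3% with Gm15459, itself at 14.98 and 20.9 CPM in those groups. Cryab overlaps Hspb2 on the opposite strand over 17.0% of its exon bases, and Hspa1a overlaps Gm20481 over 19.0%, a gene with at most 1 count in any library. Hspa5, Hspb7, Hsph1 and Dnajb1 shared 0% of their stretches with other genes.

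In the GENCODE M21 annotation of GRCm38, the genes lie apart from one another except for Hspa1a and Hspa1b. Hspa1a (ENSMUSG00000091971) is at chr17:34969190-34972156 and Hspa1b (ENSMUSG00000090877) at chr17:34956436-34959238, both on the minus strand. Cryab (ENSMUSG00000032060) is at chr9:50751325-50756636 and Hspa8 (ENSMUSG00000015656) at chr9:40800984-40810087, both on the plus strand. Hspb1 (ENSMUSG00000004951) is at chr5:135887919-135889563 on the plus strand and Hsph1 (ENSMUSG00000029657) at chr5:149614287-149636376 on the minus strand. Hspa5 (ENSMUSG00000026864) is at chr2:34771970-34777547, Hspb7 (ENSMUSG00000006221) at chr4:141420779-141425311 and Dnajb1 (ENSMUSG00000005483) at chr8:83608193-83612653, all on the plus strand, and Hsp90aa1 (ENSMUSG00000021270) at chr12:110690605-110702728 on the minus strand.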

How the data were processed

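RNA of the left gastrocnemius of 24 mice was sequenced as stranded, paired reads of 100 bases, per the labels' protocols. The authors deposited 1 raw count per Ensembl gene and sample, with no normalization found in the values. Per the submitters' processing notes, HISAT2 2.1.0, Salmon 0.9.1, featureCounts and DESeq2 1.24.0 and builds mm10 and GRCm38.p6 were used; which tool made these counts, the annotation release and the use of strand are not given in the sources used here. Symbols, positions and exon lengths came from GENCODE M21 by gene ID, which held 54409 of 54532 genes.

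Counts were filtered with filterByExpr (minimum count 10), scaled by TMM and tested with edgeR 4.0.16 quasi-likelihood F tests (robust, two-sided, R 4.3.3), with Benjamini-Hochberg adjustment over all genes tested at 0.05. Each sex was fitted with its 12 samples; interactions and male against female controls used all 24. SE is the log2 fold change's standard error that matches its p-value. Levels are CPM with TMM factors; likeness used log2 CPM with a prior count of 2. Alternatives were RLE and upper-quartile factors, DESeq2 1.42.0, no filter, only the 2 groups, all 24 samples, the replicate block, library-number groups, 1 surrogate variable (sva 3.50.0), GC and length offsets (splines with 5 degrees of freedom) and leaving out each sample; leaving out 2 male libraries together was added after seeing the data. The scripts were tested on simulated counts.

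The 10 genes and all lists were chosen with earlier results of these data known. From each list, in each comparison, the called genes that moved furthest, at most 3 in each direction, were named; list members that did not pass, where few, were named after their values were seen. The 3 genes with the highest Spearman correlation were named for each of the 10.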

Additional observations from a re-analysis of the deposited data

Results flagged for a closer look

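Within groups of 4, a value was picked out where the gap to its neighbour took more of the group's range than Dixon's 95% limit allows. Of the 60 sets of 4 values (10 genes in 6 groups) 9 held such a value. The sets share libraries and hold genes that vary together, so this count cannot be set against a chance rate. Male sedentary pain replicate 1 had 3 of them: Cryab at 2063 CPM (next 474), Hspb1 at 585 CPM (next 135) and Hspa5 at 517 CPM (next 195). Male active pain replicate 2 had 4: Cryab at 1152 CPM (next 412), Hspb7 at 806 CPM (next 208), Hspa1a at 10.04 CPM (next 2.89) and, as the lowest of its group, Hsph1 at 46.9 CPM (next 69.1). In female active pain, Hspa1a in replicate 3 was at 2.74 CPM (next 2.21) and Hsp90aa1 in replicate 1 was lowest at 32.9 CPM (next 44.4). No such value was found in the controls or in female sedentary pain.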

How the results depend on the processing

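Of 100 values (10 genes in 10 comparisons), the 16 calls kept their sign under every alternative run, though many lost their call. Of the 84 values not called, 40 changed sign under at least 1. Calls are picked for lying far from 0 in relation to their SE, so these counts do not compare like with like. In female sedentary pain against control, all genes called were 4867, 109 with 1 surrogate variable, 2847 with only the 2 groups, and 2486 to 6674 when each sample was left out; the 10 genes had 3 calls with the surrogate variable and 8 to 9 without single samples. In female active against sedentary pain, 1730 genes became 174 with no filter, 2745 with library-number groups, 2925 with the GC and length correction and replicate block, 3010 under DESeq2, and 0 with only the 2 groups or 1 surrogate variable; leaving out samples gave 0 to 4316, and 0 to 8 of the 10 genes, against 4 with no filter, 0 with the surrogate variable and 0 with only the 2 groups. In female active pain against control, 0 genes became 8 with 1 surrogate variable, 124 under DESeq2 and 1 with the GC and length correction and replicate block, and the 10 genes' 2 without overlap became 1 with RLE factors and 1 with total counts.

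In males, 0 genes became 5 (1 surrogate variable), 270 (DESeq2) and 2 (without both male libraries that stood apart) in sedentary pain against control, and 5, 127 and 8 in active pain against control; with total counts 4 of the 10 genes lacked overlap in the former. For the sex differences, 0 genes became 15 with DESeq2 and 591 without both male libraries in sedentary pain against control (2 of the 10 genes; 0 to 18 genes when leaving out single samples), 3 with DESeq2 in active pain against control (0 to 1), and 3 with library-number groups and 111 with DESeq2 in active against sedentary pain (0 to 2174, and 0 to 2 of the 10 genes). Male against female controls gave 427 genes, 776 with 1 surrogate variable, 720 with DESeq2, 775 without both male libraries and 198 to 622 without single samples. The cause was not tested.

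Replicate numbers recur in every group, on different animals. Residuals of same-numbered animals correlated at 0.35, -0.08, 0.01 and 0.28 between female sedentary pain and control. Between male active and sedentary pain they correlated at 0.09, -0.65, 0.42 and 0.57. In no comparison did every pair exceed 0.1, and the samples were not treated as pairs. Whether same-numbered samples shared a batch was not tested. With the replicate block, genes called went from 4867 to 3739, from 1730 to 1629 and, between the controls, from 427 to 312, and the 10 genes kept 9, 0 and 7 calls in the 3 female comparisons and 0 in the others. With 4 animals a group, small differences could be missed in any of the 10 genes. Hspa1a, Hspa1b and Dnajb1 had CPM under 10 in controls, and the part of this low level was not tested. In female sedentary pain against control the SE was 0.22 for Dnajb1 and 0.39 for the abundant Hspb7.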
